A study of Mus musculus with 12 samples.

Results

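The interaction of doxycycline and dTAG-13 asks, for each gene, whether the transcript response to one compound depended on the presence of the other. It was computed as the log2 change with dTAG-13 in doxycycline-treated cells minus the log2 change with dTAG-13 in cells without doxycycline, so it uses all 12 of the 12 libraries in the series and all 12910 genes that passed the filter on low counts, of 27179 gene IDs. A value of 0 means that the effects of the compounds multiply. A positive value means that cells given both compounds held more of a transcript than the product of the separate fold changes gives, and a negative value means less. The same number is the doxycycline effect with dTAG-13 minus the doxycycline effect without it.

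The cells were MC38-idAdpgkG, a stably transfected line made from MC38 mouse colon carcinoma cells of C57BL/6 origin, and all of them received 20 ng/mL mouse interferon-gamma (IFNg) for 51 h. The line carries an inducible, degradable construct for Adpgk(R304M), a mutated ADP-dependent glucokinase used as a neoantigen, fused to turboGFP, a green fluorescent protein. Control cells had IFNg alone, a second group also had doxycycline at 1 µg/mL throughout the 51 h, dTAG-13 cells had IFNg for 48 h and then 1 µM dTAG-13 for a further 3 h, and the cells given both had IFNg and doxycycline for 48 h before the 3 h of dTAG-13. The promoter of the construct and the number of clones behind the line were not given in the sources used here. Each group had 3 libraries, which were technical replicates of 1 culture. The p-values therefore measure the spread between libraries of a culture, and the effect of a treatment and the difference between cultures cannot be told apart.

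Doxycycline is a tetracycline antibiotic that switches on tetracycline-controlled transgenes. It also binds bacterial-type ribosomes, including those of mitochondria, and can slow the synthesis of proteins encoded by mitochondrial DNA. dTAG-13 joins a protein carrying a mutant FKBP12 tag to the ubiquitin ligase subunit cereblon, after which the proteasome degrades the tagged protein. In a culture changed only within its last hours, transcripts that are made and destroyed quickly, such as those of immediate early genes, can move far, while stable transcripts move little.

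The libraries held 22165538 to 32809573 reads, and the lowest totals were those of 2 of the libraries from cells given both compounds. Reads of mitochondrial genes made up 3.15 to 3.34% of the reads with both compounds and 2.16 to 2.44% in the 9 other libraries. A gene ID without a symbol took 0.533 to 1.83% of the reads, with the highest share in a library with both compounds. Of 9 epithelial markers, 0 reached a mean of 1 CPM (the read count normalised to the size of the library), and Epcam and Cdx2 were at 0 reads in all 12 libraries. Vim, Col3a1, Pdgfrb and Zeb1, 4 of 7 mesenchymal markers, were above 1 CPM, and Col1a1, Col1a2 and Thy1 were below it. The summed level of the mesenchymal markers was 2398 to 2456 CPM in the control libraries, 2461 to 2503 with doxycycline, 2001 to 2028 with dTAG-13 and 1940 to 2000 with both, and its part in the results was not tested. The sum hides opposite changes. Between control and doxycycline, mean Vim went from 1502 to 1296 CPM and mean Col3a1 from 850 to 1105 CPM. Of these markers only Col3a1 had a called interaction (-0.15). Leukocyte markers reached 1 CPM for 1 of 7 genes and endothelial markers for 1 of 4. The libraries thus lacked these epithelial markers, although the line is labelled a colon carcinoma. In such bulk RNA, fewer cells of a kind and less RNA per cell cannot be told apart.

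The interaction was called (edgeR quasi-likelihood test, Benjamini-Hochberg adjusted p under 0.05) for 2950 of the 12910 genes, or 22.9% of those tested. It was positive for 1705 genes (13.2%) and negative for 1245 (9.64%). These shares are the background for every count of called list members below. The split between positive and negative calls depended on the scaling of the libraries. With library size as the only scaling, 818 genes were called higher and 2424 lower, so that 25.2% of the calls were positive against 57.8%, and the median interaction over all genes moved from 0.005 to -0.07. With transcript length and GC content corrected for, 2013 were higher and 863 lower. Most departures were small. The median absolute log2 value of the called genes was 0.229, 292 reached 0.5 (91 positive and 201 negative), and 81 reached 1 (0.627% of genes tested), of which 9 had a mean of at least 5 CPM. On the linear scale of CPM, the sign was the opposite of the log2 sign for 2 of the 2950 genes.

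The 2950 genes were sorted by the effect of dTAG-13 in each setting. For 874 genes dTAG-13 acted in the same direction with and without doxycycline and its effect was larger with doxycycline, and for 566 it was smaller with doxycycline. The effect had opposite directions in 243 genes, of which 126 rose without and fell with doxycycline and 117 fell without and rose with it. dTAG-13 changed 710 genes only in the presence of doxycycline by the separate tests and 537 only in its absence, and 20 were called in neither. The sizes depended on the processing. With transcript length and GC content corrected for, 392 genes had a larger effect with doxycycline and 811 an effect only without it. The background for these classes is high, since dTAG-13 alone changed 62.1% of all genes tested and dTAG-13 on top of doxycycline changed 64.1%. Read from the other side, doxycycline changed 1567 of the 2950 genes only without dTAG-13 and 630 only with it, 362 in opposite directions, 122 in the same direction with a smaller effect under dTAG-13 and 49 with a larger one, and 220 in neither setting. Over all genes, doxycycline alone changed 33.5% and doxycycline on top of dTAG-13 changed 20.4%. The class with opposite dTAG-13 effects had a median absolute interaction of 0.36, against 0.20 for the genes with a larger effect in the same direction. The interaction adds opposite effects and subtracts effects of the same direction, so this order follows largely from how the classes are defined.

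**Figure D1:**
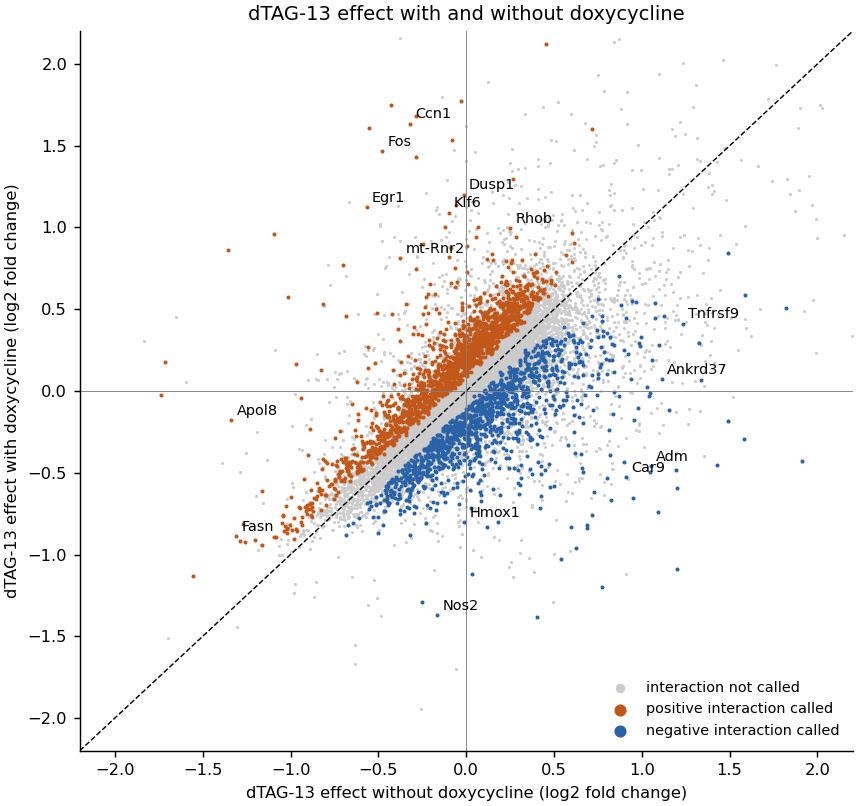
Log2 fold change with dTAG-13 in cells without doxycycline (x axis) against that in cells with doxycycline (y axis), 1 point per gene of 12910 tested (17 lie outside the axes). Genes on the dashed diagonal have no interaction; orange points were called positive (1705) and blue points negative (1245), and Ccn1, Fos and Egr1 lie in the upper left with a fall without and a rise with doxycycline.

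Immediate early genes were among the largest positive interactions. These genes are transcribed within minutes of a stimulus without new protein synthesis, mainly through serum response factor (SRF) and through CREB and ATF proteins, and many of their products are transcription factors with unstable mRNA. Their promoters can hold TGACGT, the core of the cAMP response element bound by CREB and ATF proteins. The 250 bases before the RefSeq start (GRCm38.p6) are shown for Ccn1 (chr3:145649986-145650235, minus strand), Fos (chr12:85473640-85473889, plus strand) and Dusp1 (chr17:26508473-26508722, minus strand), which stand among the top positive values and hold this core. Ccn1 belongs to the list of YAP/TEAD targets and not to the immediate early list, so the count of immediate early promoters below leaves it out. Each reads 5′ to 3′ toward the gene, with TGACGT on either strand in capitals (on the other strand it reads ACGTCA).
Ccn1: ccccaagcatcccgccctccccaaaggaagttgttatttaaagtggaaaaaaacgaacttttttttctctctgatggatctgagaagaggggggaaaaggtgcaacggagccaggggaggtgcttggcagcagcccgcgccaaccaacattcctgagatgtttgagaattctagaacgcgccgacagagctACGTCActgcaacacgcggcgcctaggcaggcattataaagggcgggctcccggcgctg
Fos: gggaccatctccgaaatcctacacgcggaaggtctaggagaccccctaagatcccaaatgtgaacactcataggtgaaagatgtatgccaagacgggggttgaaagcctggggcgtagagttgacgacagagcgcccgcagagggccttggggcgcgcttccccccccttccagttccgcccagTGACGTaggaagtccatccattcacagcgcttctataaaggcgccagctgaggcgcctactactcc
Dusp1: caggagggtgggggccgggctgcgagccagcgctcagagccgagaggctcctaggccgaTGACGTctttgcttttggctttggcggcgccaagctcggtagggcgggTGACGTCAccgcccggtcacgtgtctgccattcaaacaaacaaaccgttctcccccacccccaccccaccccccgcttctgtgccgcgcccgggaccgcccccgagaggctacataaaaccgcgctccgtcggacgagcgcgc
The match lay 54 bases before the start in Ccn1 and 61 bases before it in Fos, and Dusp1 held 3 matches, of which 2 overlap. Among the 19 immediate early genes with a promoter in the RefSeq table, 5 held TGACGT on either strand (26.3%), against 10.7% of 9754 tested genes and 6.56% of 27025 promoters in all. The CArG box, the SRF site, was found in 1 of the 19 promoters, in 5 of 15 promoters of SRF cytoskeletal targets and in 1.16% of tested genes. A match describes these letters in this window only. The promoters shown were chosen for holding the core, so their matches are not a result.

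Ccn1 (chr3:145646971-145649985, GRCm38), the matricellular protein once called Cyr61 and a target of YAP and of SRF, had the largest called value at a mean level of 5 CPM or more. Its normalised read counts were 289, 283 and 292 CPM in the control libraries, 109, 104 and 106 with doxycycline, 221, 235 and 235 with dTAG-13 and 327, 342 and 319 with both. Doxycycline alone gave the lowest libraries, and the libraries with both compounds lay above all others. Multiplying the separate effects gives 84.8 CPM for cells with both, and the measured mean was 329 ± 11.4 CPM (SD, n = 3), 3.88 times as much. dTAG-13 changed Ccn1 by -0.32 ± 0.03 (log2, SE) without doxycycline and by 1.64 ± 0.03 with it, and the interaction was 1.96 ± 0.04 (SE, adjusted p = 4.1e-33) by edgeR.

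Egr1, a zinc-finger transcription factor induced by growth factors, showed 277, 270.2 and 291 CPM in the control libraries, 107, 111 and 109 with doxycycline, 189, 189 and 187 with dTAG-13 and 238, 245 and 230.1 with both. Doxycycline libraries were the lowest and control libraries the highest, with no overlap between any of the groups. dTAG-13 lowered Egr1 by itself (-0.57) and raised it after doxycycline (1.12), and the interaction was 1.69 ± 0.04 (SE, adjusted p = 6.5e-31). Klf6 (chr13:5861489-5870393), a Krüppel-like factor, had closely matched libraries, with 347, 347 and 348 CPM in the control libraries, 196, 188 and 188 with doxycycline, 326, 325 and 322 with dTAG-13 and 407, 405 and 403 with both. The mean with both compounds was 2.28 times the multiplicative value of 178 CPM, and the interaction was 1.19 ± 0.03 (SE, adjusted p = 1.2e-28). Dusp1 (chr17:26505591-26508472), a phosphatase that switches off MAP kinases, was at 6.53, 5.6 and 6.25 CPM in the control libraries, 4.08, 3.73 and 4.56 with doxycycline, 5.98, 5.89 and 6.34 with dTAG-13 and 11.1, 8.41 and 9.1 with both. The libraries with both compounds lay above the 9 others, and the interaction was 1.21 ± 0.16 (SE, adjusted p = 2.2e-07). Fos (chr12:85473890-85477274), the AP-1 subunit, was weakly expressed, at 2.76, 2.22 and 2.87 CPM in the control libraries, 0.842, 1.03 and 0.967 with doxycycline, 1.67, 1.71 and 2.27 with dTAG-13 and 2.72, 2.48 and 2.68 with both, and cells with both compounds overlapped the controls. Its interaction was 1.95 ± 0.28 (SE, adjusted p = 9.7e-07), with log2 changes of -0.48 with dTAG-13 alone and 1.47 with dTAG-13 after doxycycline.

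**Figure D2:**
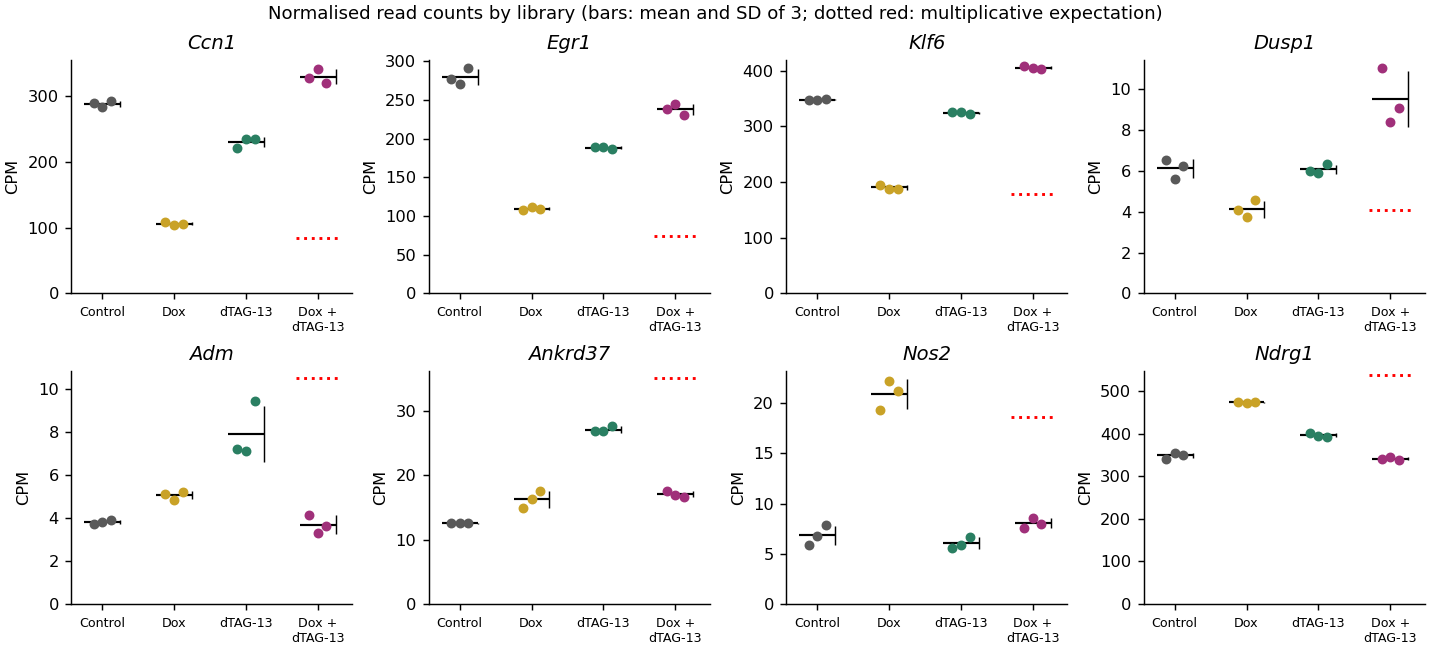
Normalised read counts (CPM, y axis from 0) of 8 genes in each of the 12 libraries, by treatment; black bars give the mean and SD of 3 libraries and the dotted red line the multiplicative expectation for both compounds. Ccn1, Egr1, Klf6 and Dusp1 lie above the line with both compounds (Ccn1 at 327, 342 and 319 CPM against 84.8), and Adm, Ankrd37, Nos2 and Ndrg1 lie below it.

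Of the 23 immediate early genes tested, of 24 in the list, 14 had a positive and 2 a negative called interaction, with a median of 0.46 over the list against 0.005 over all genes. Doxycycline alone lowered 12 of them and raised 3, where 18.7% and 14.8% of all genes were called in those directions. With dTAG-13 present, doxycycline lowered 2 and raised 10 (background 9.64% lower and 10.7% higher). dTAG-13 alone raised 2 and lowered 7, and after doxycycline it raised 14 and lowered 4. The background for these counts was 30% higher and 32.1% lower without doxycycline, and 30.7% and 33.4% with it. Ier2 (chr8:84661331-84662852), a nuclear protein of unstable mRNA, was at 80.6, 76.6 and 79.4 CPM in the control libraries, 48.9, 48.2 and 49.8 with doxycycline, 82.4, 82.3 and 81.7 with dTAG-13 and 95, 91.6 and 95.3 with both, and its interaction was 0.88. Trib1, a pseudokinase that acts as an adaptor of ubiquitin ligases and belongs to no list here, was at 173, 168 and 174 CPM in the control libraries, 107, 102 and 107 with doxycycline, 120.4, 125 and 117 with dTAG-13 and 142, 155 and 142 with both, with an interaction of 0.98 ± 0.04 (SE, adjusted p = 1.1e-19). Further positive calls included Fosb (1.15), Egr2 (1.03), Ier5 (0.64), Nr4a1 (0.63), Jun (0.43) and Junb (0.26). Btg2, an antiproliferative early gene, had an interaction of 0.69 at 1.76 to 3.66 CPM, but the call was lost in 10 of 20 alternative analyses. The list did not move as a block. Nr4a2, an orphan nuclear receptor, was called negative (-0.60), as was Ier3 (-0.40), and Egr3, Jund, Klf4, Fosl1 and Maff had values between -0.04 and 0.07 without a call. Without the first doxycycline library, or without the third library with both compounds, the list held 1 negative call.

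**Figure D3:**
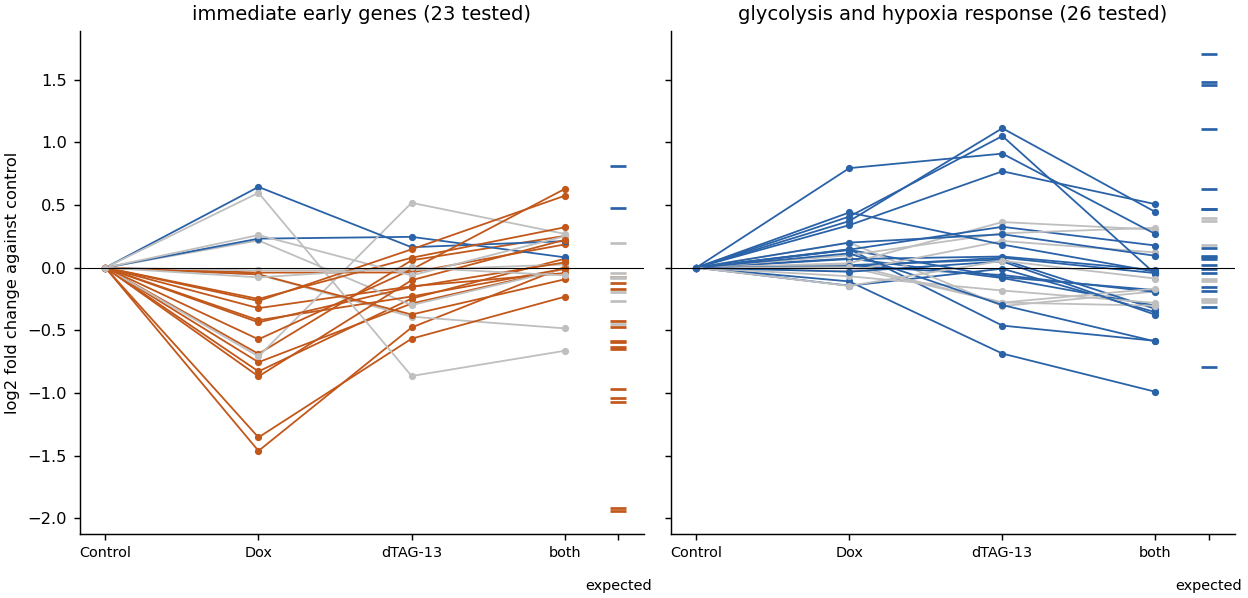
Log2 fold change against control for each tested member of the immediate early list (left, 23 genes) and the glycolysis and hypoxia list (right, 26 genes) in cells with doxycycline, with dTAG-13 and with both; bars at the right of each panel give the sum of the separate effects. Orange and blue lines are genes with a positive or negative called interaction, and in the left panel 14 orange lines end above their bars while in the right panel 18 blue lines end below theirs.

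Lists for neighbouring signalling pathways had medians closer to 0. The shares of all genes called positive and negative were 13.2% and 9.64%. YAP and TEAD drive genes of cell spreading and growth, and 4 of 19 such targets had a positive and 1 a negative call. Their share of calls, 26.3%, was near the 22.9% over all genes. The median of 0.04 became -0.03 with library size as the only scaling. Besides Ccn1, Amotl2, an inhibitor of YAP, was called, at 107, 102 and 102 CPM in the control libraries, 77.6, 78.8 and 80.5 with doxycycline, 61.7, 60.8 and 62.8 with dTAG-13 and 63.2, 66.9 and 63.7 with both and an interaction of 0.46 ± 0.05 (SE, adjusted p = 3.7e-09). Its level with both compounds lay below the controls in every library, so here the positive value is a fall smaller than the product of the separate falls. SRF and its MRTF partners control actin and its regulators, and 8 of 17 targets were called positive and 0 negative (median 0.14). Srf itself was at 115, 115 and 110.0 CPM in the control libraries, 93.8, 91.7 and 97.9 with doxycycline, 81.3, 79.6 and 77.7 with dTAG-13 and 88.2, 85.3 and 85 with both, with an interaction of 0.38, and Myh9, the heavy chain of non-muscle myosin IIA, was at 1232, 1226 and 1210.2 CPM in the control libraries, 1104, 1103 and 1104 with doxycycline, 602, 580.3 and 599.6 with dTAG-13 and 642, 670.2 and 639 with both, with 0.28. dTAG-13 lowered Myh9 in both settings, with log2 changes of -1.04 without and -0.76 with doxycycline. Among 14 feedback genes of the ERK pathway, 4 were positive and 2 negative (median 0.03, and -0.04 with library size as the only scaling). Dusp5, an ERK phosphatase, was at 76.4, 81.3 and 78.8 CPM in the control libraries, 47.8, 46.5 and 45.4 with doxycycline, 51.7, 55.8 and 57.5 with dTAG-13 and 53.1, 53.3 and 51.3 with both. The libraries with both compounds overlapped those with dTAG-13 alone, and the interaction was 0.69 ± 0.06 (SE, adjusted p = 5.3e-12). Etv1, an ETS factor, went the other way (-0.48), a call lost (adjusted p = 0.052) when length, GC content and replicate number were all fitted.

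Of 19 NF-kappaB target and feedback genes, 4 were called positive and 5 negative (median 0.00274), where 13.2% and 9.64% of all genes were. With library size as the only scaling the calls were 2 positive and 6 negative (median -0.07). Nos2 (chr11:78920787-78960226), the inducible nitric oxide synthase that IFNg and NF-kappaB switch on together, had one of the 3 largest negative values at this level of expression. It was at 5.9, 6.73 and 7.84 CPM in the control libraries, 19.3, 22.2 and 21.3 with doxycycline, 5.56, 5.92 and 6.72 with dTAG-13 and 7.58, 8.61 and 8.01 with both. Doxycycline libraries stood above all others, and those with both compounds overlapped the controls. Doxycycline raised Nos2 by 1.62 ± 0.09 (log2, SE) without dTAG-13 and by 0.42 ± 0.10 with it, and the interaction was -1.21 ± 0.14 (SE, adjusted p = 1.2e-08). Nfkbiz, an atypical IκB protein of short-lived mRNA, went the other way, at 19, 19 and 19.2 CPM in the control libraries, 15.7, 14.5 and 15.5 with doxycycline, 20.1, 20.9 and 21.2 with dTAG-13 and 25.8, 27.2 and 27.2 with both and an interaction of 0.69 ± 0.08 (SE, adjusted p = 4.8e-08).

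Hypoxia-response and glycolysis genes were prominent among the negative interactions. Hypoxia-inducible factors (HIF), which prolyl hydroxylases mark for destruction when oxygen is present, raise such genes by binding ACGTG or GCGTG. The 250 bases before the start are shown for Adm (chr7:110627407-110627656) and Car9 (chr4:43506776-43507025), both on the plus strand, because they hold the 2 lowest values of the list. Capitals mark ACGTG or GCGTG on either strand (on the other strand CACGT or CACGC).
Adm: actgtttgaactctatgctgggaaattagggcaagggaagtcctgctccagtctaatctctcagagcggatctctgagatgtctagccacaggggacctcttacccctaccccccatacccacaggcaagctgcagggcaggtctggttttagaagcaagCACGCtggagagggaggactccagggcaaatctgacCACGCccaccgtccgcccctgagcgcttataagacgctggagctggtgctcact
Car9: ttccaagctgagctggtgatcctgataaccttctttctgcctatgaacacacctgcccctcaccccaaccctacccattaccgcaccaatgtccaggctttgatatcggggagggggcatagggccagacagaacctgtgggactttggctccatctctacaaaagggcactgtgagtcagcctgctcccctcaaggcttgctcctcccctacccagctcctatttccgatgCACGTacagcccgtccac
Of 25 promoters of the list, 19 held either form (76%), and so did 57.9% of tested genes, 38.6% of all promoters and 14 of 19 immediate early promoters. So short a motif does not set the hypoxia list apart from the early genes in this window.

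Each compound alone raised the leading members, and with dTAG-13 present doxycycline lowered them. Adm (chr7:110627657-110629820), which encodes the peptide adrenomedullin, was at 3.7, 3.8 and 3.9 CPM in the control libraries, 5.08, 4.83 and 5.21 with doxycycline, 7.2, 7.08 and 9.4 with dTAG-13 and 4.15, 3.3 and 3.61 with both. Libraries with both compounds overlapped the controls, while the multiplicative value was 10.5 CPM. The dTAG-13 effect was 1.05 ± 0.12 without and -0.46 ± 0.13 with doxycycline (log2, SE), and the interaction was -1.51 ± 0.18 (SE, adjusted p = 2.3e-08). Car9 (chr4:43507026-43513729), a membrane carbonic anhydrase of hypoxic cells, was at 3.07, 3.51 and 2.56 CPM in the control libraries, 5.34, 5.47 and 5.11 with doxycycline, 5.33, 6.5 and 5.41 with dTAG-13 and 3.39, 4.6 and 3.13 with both, and its interaction was -1.44 ± 0.20 (SE, adjusted p = 4.5e-07). Ankrd37 (chr8:45996908-46000414), an ankyrin-repeat protein and HIF target, was at 12.6, 12.5 and 12.5 CPM in the control libraries, 14.8, 16.3 and 17.5 with doxycycline, 26.8, 26.8 and 27.6 with dTAG-13 and 17.6, 16.9 and 16.7 with both. The dTAG-13 libraries stood far above the rest, and those with both compounds overlapped those with doxycycline alone. dTAG-13 raised it by 1.11 without doxycycline, the value with doxycycline was 0.07 (adjusted p = 0.35, edgeR), and the interaction was -1.04 ± 0.09 (SE, adjusted p = 2.3e-11).

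More abundant members varied less between libraries. Ndrg1 (chr15:66929318-66969641), a stress-responsive protein, was at 342, 355 and 351 CPM in the control libraries, 475, 474 and 474 with doxycycline, 402, 396 and 393 with dTAG-13 and 342, 345 and 338 with both. Controls and cells with both compounds overlapped, below each single treatment, and the interaction was -0.66 ± 0.03 (SE, adjusted p = 7.4e-20). Bnip3, a mitophagy receptor, was at 150.3, 152 and 152 CPM in the control libraries, 189.6, 194 and 192 with doxycycline, 261, 255 and 258 with dTAG-13 and 216, 212 and 218 with both, with an interaction of -0.60 ± 0.03 (SE, adjusted p = 3.6e-17). Bnip3 with both compounds remained above the controls but below dTAG-13 alone. Outside the list, Ero1a, an oxidase of the endoplasmic reticulum, was at 816, 849.8 and 853 CPM in the control libraries, 1061, 1031 and 1024 with doxycycline, 1089, 1139.6 and 1098 with dTAG-13 and 819, 833 and 837 with both, and Bhlhe40, a transcriptional repressor, at 57.9, 57 and 57.2 CPM in the control libraries, 74, 74.6 and 72.7 with doxycycline, 70.02, 69.9 and 73.5 with dTAG-13 and 50.3, 51.7 and 51 with both. Their interactions were -0.72 ± 0.03 (SE, adjusted p = 5.4e-22) and -0.84 ± 0.05 (SE, adjusted p = 3.6e-16), and both genes were highest under a single compound. In the list as a whole, 18 of 26 tested members were called negative and 0 positive, with a median of -0.22, and 23 were negative with library size as the only scaling and 19 after the length and GC correction. The called members differ in role and included the oxygen sensors Egln1 (-0.40) and Egln3 (-0.39), the collagen hydroxylase P4ha1 (-0.37), the pyruvate dehydrogenase kinase Pdk1 (-0.29), the glucose transporter Slc2a1 (-0.20) and the enzymes Pfkp (-0.42), Hk1 (-0.27) and Hk2 (-0.19). Vegfa (-0.05), Ldha (-0.06), Pgk1 (-0.09) and Slc16a3 (0.003) had no call. dTAG-13 alone raised 12 and lowered 9 members, and after doxycycline it raised 4 and lowered 18. Doxycycline alone raised 13 and lowered 3, and with dTAG-13 it raised 1 and lowered 20. Over all genes, dTAG-13 raised 30% and lowered 32.1% without doxycycline and 30.7% and 33.4% with it, so the 9 members lowered by dTAG-13 alone are near that share. Doxycycline raised 14.8% and lowered 18.7% of all genes alone and 10.7% and 9.64% with dTAG-13.

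Several stress and metabolic genes also fell short of the product of the separate effects. Hmox1 (chr8:75093618-75100593), the haem oxygenase induced through NRF2, was at 288, 285 and 312 CPM in the control libraries, 419.9, 429 and 413 with doxycycline, 291, 295 and 293 with dTAG-13 and 238, 249 and 235 with both. It was highest with doxycycline and lowest with both, and no library with both compounds overlapped another group. dTAG-13 changed it only after doxycycline by the separate tests (-0.80, against -0.01 with adjusted p = 0.77 by edgeR without it), and the interaction was -0.79 ± 0.04 (SE, adjusted p = 5e-18). Gstm1, a glutathione transferase, was at 7.37, 7.86 and 8.2 CPM in the control libraries, 16.3, 16.4 and 15.1 with doxycycline, 10.6, 10.7 and 10.7 with dTAG-13 and 11.5, 11.8 and 11 with both, and its interaction was -0.93 ± 0.11 (SE, adjusted p = 2.7e-08). Of 17 NRF2 targets, 6 were called negative and 1 positive (median -0.06), where 9.64% and 13.2% of all genes were. With library size as the only scaling 13 were negative. Nqo1, a quinone reductase, was among the 6 (-0.42), but that call was lost in 9 of 20 alternatives. The positive call was that of Slc7a11 (0.16), the cystine transporter, which the amino acid response also controls. The part of that control was not tested. The Slc7a11 call was lost with library size as the only scaling. It was also lost without the second control, the second doxycycline, the third dTAG-13 or the first library with both compounds.

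Lysosome and autophagy genes were called negative for 11 of 23 members and positive for 0 (median -0.12), where 9.64% of all genes were called negative. After the length and GC correction 8 were negative and 1 positive (median -0.08), and with library size as the only scaling 14 were negative. Neu1, a lysosomal sialidase, was at 11.6, 12.5 and 13.2 CPM in the control libraries, 13.8, 14.9 and 15.4 with doxycycline, 19.5, 19 and 19 with dTAG-13 and 16.8, 16.4 and 18.5 with both and had an interaction of -0.39. Ctsd, the protease cathepsin D, was at 254, 248 and 239.7 CPM in the control libraries, 276, 284 and 288 with doxycycline, 298, 298 and 293 with dTAG-13 and 297, 292 and 296 with both, with -0.20. Each compound alone raised both genes, and doxycycline on top of dTAG-13 had no called effect on them (-0.15 and -0.01). Doxycycline alone raised 16 members and lowered 3, and in the presence of dTAG-13 it raised 1 and lowered 4. The share of all genes that doxycycline raised or lowered was 14.8% and 18.7% alone and 10.7% and 9.64% with dTAG-13, and of these counts the 16 raised by doxycycline alone lay farthest from it.

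Genes of the extracellular matrix and its receptors were called negative for 8 of 20 members and positive for 1 (median -0.14, and -0.06 after the length and GC correction, in a list with a median transcript length of 5938 bases). Nid1, a basement membrane protein, was at 48.1, 46.9 and 46.8 CPM in the control libraries, 68.7, 69.7 and 68.4 with doxycycline, 40.6, 40.4 and 42 with dTAG-13 and 39.7, 44.2 and 41.7 with both, and its interaction was -0.51. Hspg2, the proteoglycan perlecan, was the positive one, at 399, 389.8 and 419 CPM in the control libraries, 393, 389.8 and 391 with doxycycline, 164, 167 and 171 with dTAG-13 and 219.7, 238 and 211 with both, with 0.46 ± 0.05 (SE, adjusted p = 1.4e-06). dTAG-13 lowered Hspg2 in both settings (-1.27 and -0.81), less so after doxycycline. Among 14 p53 targets 3 were called positive and 3 negative, where 13.2% and 9.64% of all genes were. With library size as the only scaling 2 were positive and 3 negative. Cdkn1a, the cell-cycle inhibitor p21, was at 73.5, 74.8 and 75.4 CPM in the control libraries, 70.9, 73.5 and 73.9 with doxycycline, 88, 83.2 and 87.1 with dTAG-13 and 57, 56.5 and 58 with both, and the libraries with both compounds were the lowest (interaction -0.56 ± 0.05 (SE, adjusted p = 3.1e-11)). Plk2, a polo-like kinase also induced by serum, went the other way at 595, 591 and 585 CPM in the control libraries, 419.7, 416 and 418 with doxycycline, 522, 534 and 521 with dTAG-13 and 527, 514 and 529.9 with both, with 0.49 ± 0.03 (SE, adjusted p = 1.2e-16). Trp53inp1, an autophagy-linked p53 target, had an interaction of -1.13 ± 0.29 (SE, adjusted p = 0.0034) at only 1.26 to 2.96 CPM.

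Transcripts made in the mitochondrion formed the list with the highest median. Mitochondrial DNA encodes subunits of the respiratory chain and ATP synthase and ribosomal RNAs, all cut from long shared transcripts, so these genes are not independent of each other. All 13 protein genes were tested, 11 were called positive and 0 negative, and the median interaction was 0.69. mt-Rnr2 (chrMT:1094-2675), the large ribosomal RNA of the mitochondrion, was at 1221, 1232 and 1337 CPM in the control libraries, 1279, 1256 and 1349 with doxycycline, 962, 972 and 988 with dTAG-13 and 2222, 2302 and 2295 with both. The libraries with both compounds stood above the 9 others, and the interaction was 1.19 ± 0.05 (SE, adjusted p = 4.3e-08). mt-Nd1, a core subunit of complex I, was at 1828, 1922 and 2044 CPM in the control libraries, 1950.0, 1952 and 1881 with doxycycline, 1512, 1545 and 1512 with dTAG-13 and 2798, 2826 and 2729 with both, with 0.87 ± 0.05 (SE, adjusted p = 4e-07). mt-Nd4l, whose reading frame overlaps that of mt-Nd4, was at 183, 182 and 192 CPM in the control libraries, 203, 207 and 193 with doxycycline, 135, 139.8 and 141 with dTAG-13 and 278, 306 and 254 with both, with 0.89 ± 0.09 (SE, adjusted p = 9.9e-05), and how reads of overlapping genes were divided was not given in the sources used here. Doxycycline raised mt-Nd2 in both settings, by 0.26 without and 0.95 with dTAG-13 (interaction 0.69). mt-Cytb, of complex III, was at 4361, 4459.8 and 4950.1 CPM in the control libraries, 3809, 3883 and 3689 with doxycycline, 3857, 3961 and 3892 with dTAG-13 and 5346, 5686 and 5235 with both, with 0.75, and mt-Co1, of cytochrome oxidase, at 5592, 5807 and 6189.7 CPM in the control libraries, 5425, 5432 and 5179.6 with doxycycline, 5695, 5961 and 5784 with dTAG-13 and 6913, 7252 and 6978 with both, with 0.41. mt-Co3 (0.20) and mt-Atp8 (0.66) had no call. dTAG-13 alone lowered 7 of the 13 and raised 1, and after doxycycline it raised 12 and lowered 0. Over all genes it lowered 32.1% and raised 30% alone, and raised 30.7% and lowered 33.4% after doxycycline. Libraries were made from RNA enriched with oligo(dT) beads, so these values count polyadenylated or carried-over molecules, and the part of that step in the result was not tested.

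**Figure D4:**
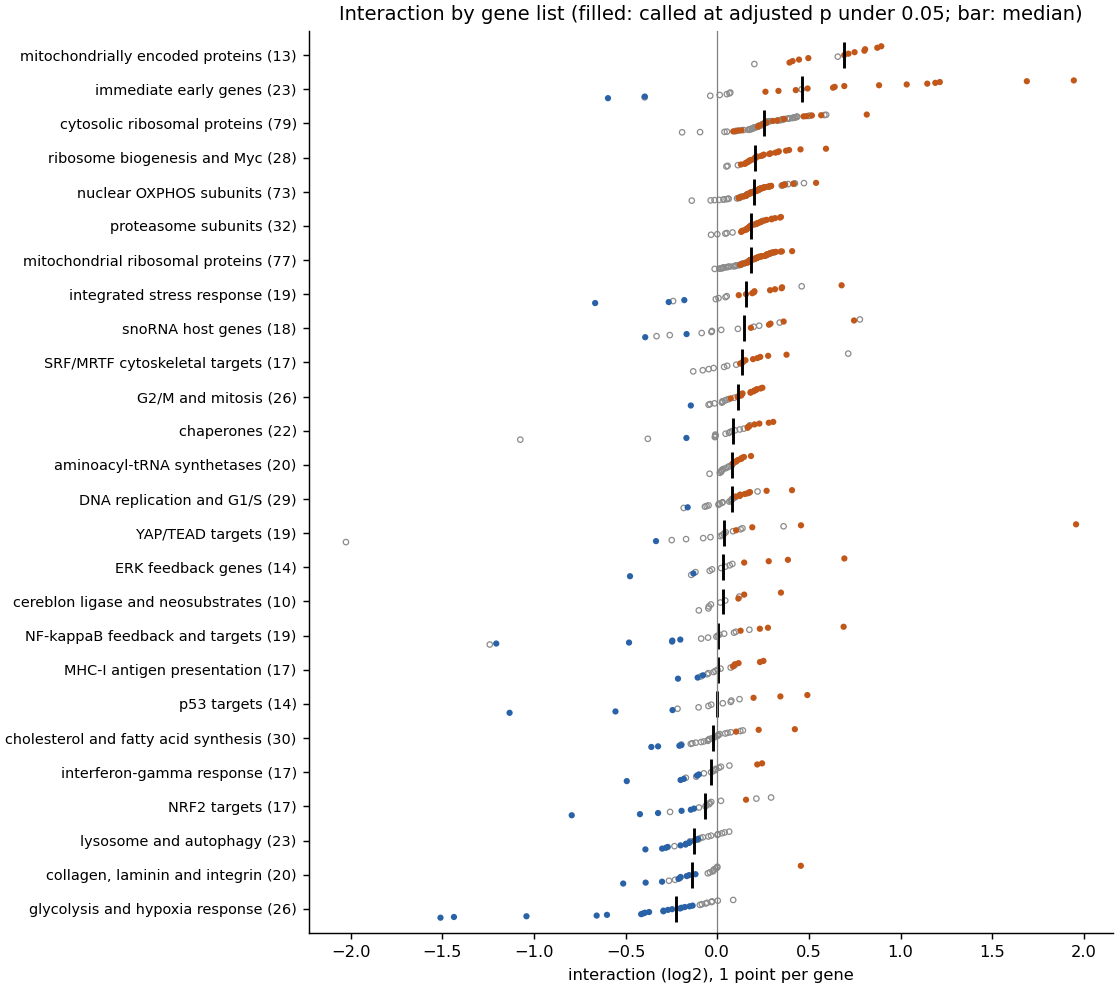
Interaction (log2, x axis) of every tested member of 26 gene lists, 1 point per gene, ordered by the list median (black bar); the number of members tested stands after each name. Filled points were called (orange positive, blue negative) and open points were not; mitochondrially encoded proteins (median 0.69) and immediate early genes (0.46) stand at the top and the glycolysis and hypoxia response (-0.22) at the bottom.

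Nuclear genes for mitochondrial proteins had smaller positive medians. Of 73 subunits of the oxidative phosphorylation complexes (OXPHOS), 43 were called positive and 0 negative (median 0.20), and of 77 mitochondrial ribosomal proteins, 47 and 0 (median 0.18). These are short transcripts, with median lengths of 908 and 1339 bases against 3130 over all genes, and short transcripts had higher values in general. After the length and GC correction 22 OXPHOS subunits were positive and 1 negative, with a median of 0.11, and 29 and 0 mitochondrial ribosomal proteins, with a median of 0.12. With library size as the only scaling the positive calls were 24 and 19. Atp5g2, a subunit of the ATP synthase ring, was at 14.6, 13.1 and 12.8 CPM in the control libraries, 10.6, 11.4 and 11.8 with doxycycline, 15.8, 11.8 and 12.3 with dTAG-13 and 15.8, 16.3 and 16.1 with both, with 0.54 ± 0.12 (SE, adjusted p = 0.0011). Mrpl16 was at 47.7, 44.6 and 45.9 CPM in the control libraries, 39, 40.6 and 38.4 with doxycycline, 44.3, 42.8 and 45.1 with dTAG-13 and 47.6, 51.4 and 50.5 with both, with 0.41 ± 0.06 (SE, adjusted p = 3.5e-06), and Mrpl20 at 66.2, 63.2 and 62.2 CPM in the control libraries, 52.6, 55.2 and 54.1 with doxycycline, 69.3, 71.4 and 70.8 with dTAG-13 and 76.4, 75.8 and 75.9 with both, with 0.35 ± 0.05 (SE, adjusted p = 1.9e-06). Doxycycline lowered both ribosomal proteins when given alone (-0.23 and -0.24) and raised them when dTAG-13 was present (0.18 and 0.11). Ndufa12, of complex I, had 0.42, with the call lost in 12 of 20 alternatives.

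The proteasome degrades ubiquitin-marked proteins, including those targeted by dTAG-13, and 26 of 32 subunit and assembly genes were called positive and 0 negative (median 0.18), 23 and 0 after the length and GC correction and 16 and 0 with library size as the only scaling. Doxycycline alone lowered 23 of them and raised 2, and with dTAG-13 it lowered 0 and raised 18. Over all genes it lowered 18.7% and raised 14.8% alone, and lowered 9.64% and raised 10.7% with dTAG-13. Psmb3, of the catalytic core ring, was at 147, 138 and 131 CPM in the control libraries, 119, 117 and 119 with doxycycline, 151, 139 and 147 with dTAG-13 and 156, 153 and 164 with both. Doxycycline libraries were the lowest, and the interaction was 0.34 ± 0.05 (SE, adjusted p = 2.7e-05). Psma5, of the outer ring, was at 48.4, 46 and 43.8 CPM in the control libraries, 40.3, 43.4 and 45.7 with doxycycline, 55.9, 52.4 and 49.8 with dTAG-13 and 65.2, 61.6 and 61.5 with both, with 0.35 ± 0.07 (SE, adjusted p = 0.00017).

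Ribosome biogenesis and Myc formed the list with the largest share of calls, 25 of 28, all positive (median 0.21, against 0.23 after the length and GC correction; 18 positive and 0 negative with library size as the only scaling). These genes make, fold and modify ribosomal RNA in the nucleolus. Myc, the transcription factor that drives many of them, was at 471, 471 and 504 CPM in the control libraries, 376, 383 and 370.0 with doxycycline, 355, 364 and 363 with dTAG-13 and 344, 372 and 347 with both. Each compound alone lowered it, and cells with both overlapped each single treatment instead of falling further (interaction 0.33 ± 0.04 (SE, adjusted p = 2.2e-07)). Fbl, the rRNA methyltransferase fibrillarin, was at 108, 94.5 and 97.2 CPM in the control libraries, 65.7, 71.1 and 71.8 with doxycycline, 94.1, 74.7 and 82.4 with dTAG-13 and 83.8, 89 and 90.9 with both, with 0.59 ± 0.12 (SE, adjusted p = 0.0092), and Gar1, of the pseudouridylation complex, at 170.2, 152 and 147 CPM in the control libraries, 112, 115 and 115 with doxycycline, 126, 113 and 114 with dTAG-13 and 114, 115 and 122 with both, with 0.45 ± 0.08 (SE, adjusted p = 0.0028). Npm1, the nucleolar chaperone nucleophosmin, was at 675, 681 and 711 CPM in the control libraries, 566, 609 and 610.1 with doxycycline, 649.8, 606 and 639 with dTAG-13 and 668, 668 and 657 with both, with 0.28. Doxycycline alone lowered 25 of the 28 and raised 0, and with dTAG-13 it lowered 1 and raised 6. The shares over all genes were 18.7% lowered and 14.8% raised alone, and 9.64% and 10.7% with dTAG-13.

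Cytosolic ribosomal proteins had a higher median (0.26) but fewer calls, 19 positive and 0 negative of 79 (13.2% and 9.64% over all genes). Their transcripts are short (median 914 bases) and have many processed pseudogenes, so their counts are uncertain, and with DESeq2 34 were called positive. The positive calls numbered 13 with library size as the only scaling, and 15 after the length and GC correction, which lowered the median to 0.16. Rpl10 was at 34.7, 33.1 and 32.8 CPM in the control libraries, 27.5, 27.1 and 28 with doxycycline, 42.3, 37.2 and 38.2 with dTAG-13 and 46.6, 46.1 and 50.05 with both, with 0.57 ± 0.07 (SE, adjusted p = 8.1e-08), and Rps29 at 8.13, 5.7 and 8.55 CPM in the control libraries, 5.6, 5.3 and 6.25 with doxycycline, 6.52, 7.72 and 7.13 with dTAG-13 and 10.5, 8.72 and 9.73 with both, with 0.82 ± 0.17 (SE, adjusted p = 0.00039). Rps15a had 0.49, a call lost in 9 of 20 alternatives. Among 20 aminoacyl-tRNA synthetases, which load amino acids onto tRNA, 9 were positive and 0 negative, but 1 and 1 with library size as the only scaling. Kars, for lysine, was at 488, 493 and 504 CPM in the control libraries, 471, 479 and 471 with doxycycline, 450.1, 428 and 439.7 with dTAG-13 and 473, 484 and 476 with both, with 0.18, and Mars1, for methionine, had 0.15, a call lost with that scaling. Of 18 host genes of small nucleolar RNAs, 5 were positive and 2 negative, where 13.2% and 9.64% of all genes were. With library size as the only scaling 3 were positive and 3 negative. Snhg12 was at 15.4, 17.2 and 16.4 CPM in the control libraries, 19.3, 18.1 and 19 with doxycycline, 34.5, 28.6 and 31 with dTAG-13 and 26.3, 27.8 and 28.4 with both, with -0.39, and Snhg10 had 0.75 at 2.3 to 4.56 CPM.

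The integrated stress response slows translation and raises genes of amino acid supply through ATF4. Of 19 such genes, 10 were called positive and 3 negative (median 0.16), and 8 and 3 with library size as the only scaling. Ppp1r15a, the phosphatase subunit GADD34 that ends the response, was at 385, 384 and 395 CPM in the control libraries, 246, 264 and 256 with doxycycline, 346, 339 and 347 with dTAG-13 and 361, 372 and 354 with both. Doxycycline libraries were the lowest and those with both compounds lay between dTAG-13 and control, with an interaction of 0.68 ± 0.04 (SE, adjusted p = 1.4e-18). Ddit4, an inhibitor of mTORC1 that HIF also induces, was the leading negative member, at 154, 148 and 131 CPM in the control libraries, 172, 174 and 181 with doxycycline, 242, 224 and 238 with dTAG-13 and 180.1, 169 and 189 with both, with -0.67 ± 0.09 (SE, adjusted p = 0.00067). Sesn2, a stress-induced leucine sensor, was at 152, 147 and 151 CPM in the control libraries, 112, 111 and 107 with doxycycline, 96.8, 99.1 and 95.1 with dTAG-13 and 87, 94.9 and 91.4 with both. Each compound alone lowered it and so did the pair, by less than the product (0.35 ± 0.04 (SE, adjusted p = 8.9e-08)). The other positive calls were genes of amino acid transport and of serine and folate metabolism, such as Phgdh (0.35), Slc7a5 (0.32), Slc3a2 (0.29) and Psat1 (0.20), with Atf4 itself at 0.19. Asns (0.05), Ddit3 (-0.01) and Trib3 (0.01) had no call.

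Genes of the IFNg response and of antigen presentation, which all cells were induced to express, had list medians near 0. The shares of all genes called positive and negative were 13.2% and 9.64%. Of 17 IFNg-response genes, 2 were called positive and 5 negative (median -0.03), and 2 and 7 with library size as the only scaling. Doxycycline raised 15 of them without and 14 with dTAG-13, where it raised 14.8% and 10.7% of all genes. Gbp5, a guanylate-binding protein, was at 16.3, 16.2 and 16.4 CPM in the control libraries, 41.7, 38.5 and 38.5 with doxycycline, 15.7, 17.5 and 16.4 with dTAG-13 and 26.4, 31.4 and 27.7 with both. Doxycycline raised it in both settings, by 1.28 and 0.79, and the interaction was -0.49 ± 0.09 (SE, adjusted p = 4.9e-05). Irgm1, an immunity-related GTPase, was at 449, 447 and 462 CPM in the control libraries, 406, 403 and 405 with doxycycline, 355, 363 and 360.0 with dTAG-13 and 382, 379 and 381 with both, with 0.24 ± 0.03 (SE, adjusted p = 7.2e-08). Irf1, a transcription factor of the IFNg response, had -0.10. Of 17 genes for MHC class I presentation, 5 were positive and 3 negative, with a median of 0.00187, against 1 positive and 4 negative and a median of -0.07 with library size as the only scaling. Psmb10, an immunoproteasome subunit, was at 210.4, 214 and 201 CPM in the control libraries, 197, 199.7 and 200.3 with doxycycline, 217, 220.5 and 219.8 with dTAG-13 and 249.9, 244 and 254 with both, with 0.25 ± 0.04 (SE, adjusted p = 1.2e-06). H2-K1 (0.07), H2-D1 (0.09) and B2m (-0.09), the heavy chains and light chain, had no call. Psme2, an activator of the proteasome, had 0.23, with the call lost in 13 of 20 alternatives.

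Cell-cycle lists leaned positive by small amounts. The shares of all genes called positive and negative were 13.2% and 9.64%. Of 26 G2/M genes 14 were called positive and 1 negative (median 0.11; 7 and 1 with library size as the only scaling), and of 29 replication genes 8 and 1 (median 0.08; 4 and 4). Cdc20, the activator of the anaphase-promoting complex, was at 195, 191 and 181 CPM in the control libraries, 182, 177 and 175 with doxycycline, 151, 154 and 159 with dTAG-13 and 174, 169.5 and 176 with both, with 0.25 ± 0.04 (SE, adjusted p = 1.2e-05), and Birc5, survivin, had 0.24. Tyms, thymidylate synthase, was at 30.5, 31.8 and 31.8 CPM in the control libraries, 25.3, 28.2 and 25.8 with doxycycline, 32, 29.99 and 33.7 with dTAG-13 and 35.8, 36.8 and 34.5 with both, with 0.41 ± 0.07 (SE, adjusted p = 7.1e-05), and Tk1, thymidine kinase, had 0.27. Of 22 chaperones 7 were positive and 1 negative, and 5 and 1 with library size as the only scaling. Hspa5, the endoplasmic reticulum chaperone BiP, was at 2432, 2444 and 2389.7 CPM in the control libraries, 2054, 2068 and 2079 with doxycycline, 2422, 2411 and 2382 with dTAG-13 and 2517, 2452 and 2514 with both. Doxycycline libraries were lower than all others, and the interaction was 0.28 ± 0.02 (SE, adjusted p = 3.6e-12). Hspe1, the mitochondrial chaperonin subunit, was at 151, 151 and 145 CPM in the control libraries, 136, 139.7 and 135 with doxycycline, 199.5, 178 and 188 with dTAG-13 and 211, 213 and 218 with both, with 0.31. Of 30 genes for cholesterol and fatty acid synthesis, 3 were positive and 4 negative (median -0.02), a share of calls near the 22.9% over all genes. The split was 2 positive and 10 negative with library size as the only scaling. Fasn, fatty acid synthase, was at 693, 702 and 717 CPM in the control libraries, 573, 580.4 and 565 with doxycycline, 273, 288 and 290.2 with dTAG-13 and 302, 322 and 304 with both. dTAG-13 lowered it in both settings, with log2 changes of -1.31 and -0.89, and the interaction was 0.42 ± 0.03 (SE, adjusted p = 3e-12). Scd2, a fatty acid desaturase, was at 2037, 2052 and 2143 CPM in the control libraries, 2326, 2313 and 2314 with doxycycline, 1806, 1876 and 1849 with dTAG-13 and 1589.9, 1651 and 1569 with both, with the opposite sign (-0.36 ± 0.03 (SE, adjusted p = 9.8e-13)).

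The genes of the experimental system itself had small values. Adpgk reads, which cannot separate the construct from the native gene here, were at 162, 158 and 162 CPM in the control libraries, 1343, 1316 and 1355 with doxycycline, 177, 182 and 185 with dTAG-13 and 1378, 1351 and 1379 with both. Doxycycline raised them by 3.06 ± 0.02 (log2, SE) without dTAG-13 and by 2.92 ± 0.02 with it, and the log2 interaction was -0.14 ± 0.03 (SE, adjusted p = 0.00041 by edgeR). On the linear scale the interaction was 10.8 CPM, of the opposite sign, so a weaker induction is not shown. Adpgk is thus among the 2 called genes whose sign differs between the scales. dTAG-13 changed Adpgk by 0.18 without doxycycline, and after doxycycline the value was 0.03 (adjusted p = 0.14, edgeR). dTAG-13 acts on protein, which was not measured. Fkbp1a, the native FKBP12, was at 578, 585 and 562 CPM in the control libraries, 517, 511 and 521 with doxycycline, 534, 530.4 and 539.8 with dTAG-13 and 507, 514 and 539.7 with both, and its interaction of 0.12 ± 0.03 (SE, adjusted p = 0.0063) was not called with library size as the only scaling or after the length and GC correction. Crbn, cereblon, was at 22.1, 21.8 and 21.3 CPM in the control libraries, 22, 19.8 and 21.1 with doxycycline, 26.2, 26.5 and 26.1 with dTAG-13 and 28.9, 28.3 and 25.8 with both, and its interaction of 0.12 ± 0.08 (SE, adjusted p = 0.31) was not called. Of 10 tested genes for the cereblon ligase and its known substrates, 3 were positive and 0 negative, where 13.2% and 9.64% of all genes were. With library size as the only scaling 1 was positive and 3 were negative. Gspt1, a translation termination factor that some cereblon ligands degrade, had 0.15, a call lost with that scaling, and Rbx1, the RING subunit of the ligase, was at 62.9, 58.1 and 62 CPM in the control libraries, 51.1, 51.1 and 54.6 with doxycycline, 65.2, 65.2 and 62.2 with dTAG-13 and 69.1, 68.7 and 72 with both, with 0.35 ± 0.06 (SE, adjusted p = 1.1e-05).

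Other genes led their classes without belonging to a list. Apol8 (chr15:77745109-77757062), an apolipoprotein L family member, was at 64.9, 67.1 and 64.7 CPM in the control libraries, 47.7, 44 and 47.2 with doxycycline, 28.3, 25.1 and 24.3 with dTAG-13 and 38.4, 39.5 and 44.2 with both. dTAG-13 alone gave the lowest libraries, and its effect shrank from -1.34 to -0.18 with doxycycline (interaction 1.16 ± 0.07 (SE, adjusted p = 6.9e-15)). Tnks1bp1, which binds tankyrase, showed the same type of attenuation at 518, 514 and 501 CPM in the control libraries, 386, 394 and 391 with doxycycline, 281, 269.9 and 277 with dTAG-13 and 328, 338 and 330.4 with both, with 0.66 ± 0.03 (SE, adjusted p = 2e-19). Rhob, a short-lived small GTPase, was at 224, 225 and 216 CPM in the control libraries, 146, 145 and 152 with doxycycline, 262, 264 and 264 with dTAG-13 and 298, 295 and 289 with both, and dTAG-13 raised it more after doxycycline (0.99) than without it (0.25), with an interaction of 0.74 ± 0.04 (SE, adjusted p = 1.1e-19). Gadd45g, a growth-arrest gene, was at 31.9, 30.9 and 28.7 CPM in the control libraries, 27.2, 25 and 24.3 with doxycycline, 37.6, 38.3 and 35.5 with dTAG-13 and 48.5, 49 and 49.6 with both, with 0.66 ± 0.07 (SE, adjusted p = 2.7e-09). Csrnp1, a nuclear activator of transcription, and Id1, an inhibitor of basic helix-loop-helix factors, were lowered by dTAG-13 only without doxycycline by the separate tests, and their interactions were 0.67 and 0.70. Rgs16, a regulator of G-protein signalling, was lowered by each compound and by the pair, at 74.3, 65.5 and 70.02 CPM in the control libraries, 38.5, 40.6 and 35.9 with doxycycline, 45.2, 44.8 and 46.9 with dTAG-13 and 35.6, 35.5 and 30.9 with both, with 0.44.

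On the negative side, Apln, the peptide apelin, was at 16.2, 16.1 and 13.9 CPM in the control libraries, 16.3, 15.7 and 17.8 with doxycycline, 17.6, 15.6 and 17.1 with dTAG-13 and 9.85, 9.31 and 8.87 with both. The first 3 groups overlapped, and the libraries with both compounds were lower than all others. Neither compound alone had a called effect on Apln, and the interaction was -0.95 ± 0.11 (SE, adjusted p = 1e-08). Kctd11, an adaptor of cullin ligases, was at 15.5, 16.1 and 16 CPM in the control libraries, 15.7, 16.1 and 15.3 with doxycycline, 20.4, 21.5 and 19.98 with dTAG-13 and 11, 10.7 and 11.5 with both, with -0.88 ± 0.09 (SE, adjusted p = 2.5e-09). Scara5, a ferritin receptor, was at 16.4, 15.6 and 16.7 CPM in the control libraries, 36.7, 34.8 and 34.8 with doxycycline, 25.5, 26.3 and 26.1 with dTAG-13 and 35.2, 34.8 and 34.9 with both, with the libraries for both compounds overlapping those for doxycycline (-0.70 ± 0.07 (SE, adjusted p = 1.5e-09)). Tnfrsf9, the costimulatory receptor 4-1BB, and Rapsn, a synaptic scaffold protein, were raised by dTAG-13 by less in the presence of doxycycline, with interactions of -0.82 and -0.70. Dop1b and Mpp2 were lowered by dTAG-13 more in the presence of doxycycline (-0.58 and -0.56). Gm12250 was raised by doxycycline in both settings and more with dTAG-13, at 62, 63.2 and 61.1 CPM in the control libraries, 75.5, 74.1 and 79.9 with doxycycline, 50.2, 49.8 and 47.9 with dTAG-13 and 86.1, 87 and 92.3 with both (0.54 ± 0.05 (SE, adjusted p = 4.3e-10)), and Rin2, a guanine nucleotide exchange factor, was lowered in both, more with dTAG-13 (-0.27). Chrnb1, in the same class as Rin2, had -0.33, with the call lost in 9 of 20 alternatives. Pseudogenes Gm7589 (0.96) and Gm13160 (0.86) and the gene with Entrez ID 100662, which has no symbol here (-0.87), completed the leading genes of these classes.

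Without a called dTAG-13 effect in either setting, the leading genes were Cdc42ep2 (-0.41), Tle6 (-0.33), Gpatch3 (0.44) and Fam72a (0.32), at 6.06 to 15.9 CPM, and their calls were lost in 8, 12, 6 and 9 of 20 alternatives. Without a called doxycycline effect in either setting, they were Col5a3 (-0.52), Kantr (-0.50), H2az1 (0.65) and Rps15a. The call was lost for Kantr in 11 and for H2az1 in 11 alternatives, and for Col5a3 without the third library of cells given both compounds (adjusted p = 0.094, edgeR).

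The interaction also varied with the length of the transcript. Length was available for 11745 genes, and Spearman's rho across genes, which are not independent replicates, was -0.27 for the interaction, -0.44 for dTAG-13 alone and -0.58 for dTAG-13 after doxycycline. In the shortest eighth of genes the median interaction was 0.134 and 27% of genes were called positive against 2.93% negative. In the longest eighth the median was -0.0593, with 8.31% positive and 19.3% negative. The dTAG-13 effect ran from 0.228 to -0.284 across the eighths without doxycycline and from 0.373 to -0.383 with it. After the length and GC correction rho was -0.01, and 2209 genes were called both with and without it, all with the same sign. Ccn1 (1.94), Egr1 (1.73), Klf6 (1.25), Adm (-1.58), Ankrd37 (-1.16) and Hmox1 (-0.85) kept their calls after it.

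**Figure D5:**
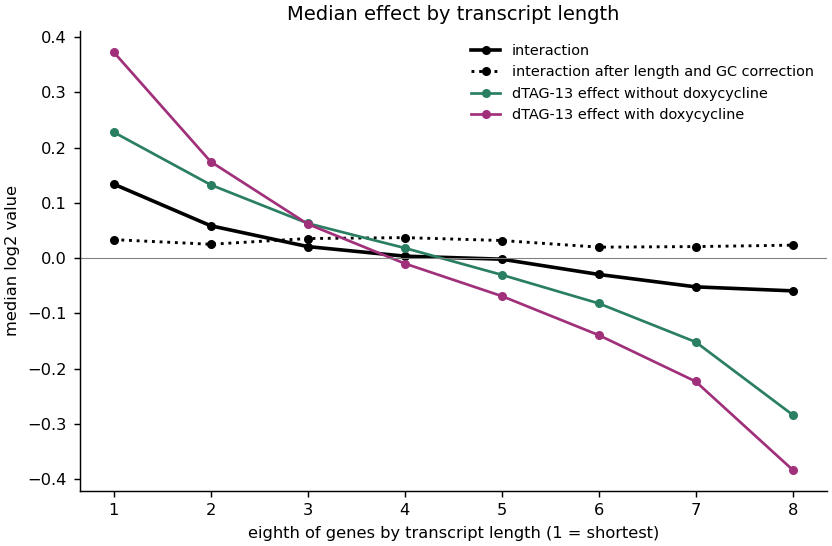
Median log2 value by eighth of transcript length (1 = shortest), over 11745 genes, for the interaction (solid black), the interaction with length and GC corrected for (dotted black) and the dTAG-13 effect without (green) and with doxycycline (purple). The solid black line falls from 0.134 to -0.0593, and the dotted line stays between 0.0198 and 0.0371.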

How the data were processed

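RNA from 12 libraries, 3 in each of 4 groups, was sequenced after poly(A) enrichment with the NEBNext Ultra II RNA kit, per the labels' protocols. Raw counts per Entrez gene ID, without normalization, are what the authors deposited. The reads were aligned with Subread per the file headers, and bcl2fastq 2.17, featureCounts and the build mm10 are named in the submitters' processing notes. The strand setting and the treatment of multiply mapped reads were not given in the sources used here, so overlapping genes, antisense genes and near-identical copies are uncertain. Symbols and positions came from RefSeq (GRCm38.p6, 25275 IDs) and GENCODE M21 (18 IDs), and 1886 IDs had no symbol. Transcript lengths are those of the longest GENCODE protein-coding transcript, or of the longest transcript where a gene has no protein-coding one.

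Counts were filtered with filterByExpr by group (12910 genes) and scaled by TMM. All 12 libraries entered a single edgeR 4.0.16 model (R 4.3.3) with a mean for each group, and contrasts were tested by quasi-likelihood F test, robust and two-sided, with Benjamini-Hochberg adjustment over all genes. Effects are log2 fold changes, and SE were derived from the F statistic. In simulated libraries of this design (12838 genes), 73 of 100 planted 1.25-fold and 100 of 100 planted 2-fold interactions were recovered, and 7 unplanted genes were called. Genes were planted only where the simulated mean was at least 5 CPM in every group, so recovery at lower levels was not tested. The simulated spread was that between libraries, so these numbers do not cover differences between cultures. Alternatives were RLE factors, library size as the only scaling, DESeq2 1.42.0, no filter, a filter of 1 CPM in 3 libraries, a replicate block, a length and GC correction (splines with 5 degrees of freedom, fitted per library) with and without that block, and leaving out each library.

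The members and the 26 gene lists were chosen with earlier results of these data known. Named genes were Adpgk, Fkbp1a and Crbn, the 2 largest called values of each sign in each class at a mean of at least 5 CPM, the 2 largest called members of each list, and the 3 largest of each sign overall. Klf6, Ier2, Btg2, Trib1, Ndrg1, Bnip3, Bhlhe40, Ero1a, Myc, Npm1, Plk2, Ctsd, mt-Cytb and mt-Co1, and list members given by their log2 value alone, were named after their values were seen. A gene that the rule chose is not reported here.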

Additional observations from a re-analysis of the deposited data

Results flagged for a closer look

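The dTAG-13 effect differed between cells with and without doxycycline, by a test of the difference itself (edgeR quasi-likelihood test, adjusted over 12910 genes), for 2950 genes. Of 102 named genes, 101 had such a difference, and Crbn did not. Apart from Adpgk, Fkbp1a and Crbn, they were picked by a called interaction or after their values were seen. The count was therefore fixed by the choice and is not a result. List members without a call, given by their log2 value alone, are not among the 102. Groups had 3 libraries, too few for a search for libraries far from their group.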

How the results depend on the processing

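The cultures were not replicated, so no setting tests a difference between cultures, and weakly expressed genes are limited by depth. The number of called genes was between 2587 (DESeq2) and 3242 (library size as the only scaling) over the alternatives fitted to all 12 libraries, and from 2374 to 3042 when 1 library was left out. Similar totals do not mean the same genes. With library size as the only scaling, 2063 of the 2950 calls were kept, all with the same sign. No named gene changed sign in any of the 20 alternatives, and 84 of 101 kept their call in all of them. Calls lost in at least 1 alternative were those of Fkbp1a, Cdc42ep2, Tle6, Fam72a, Gpatch3, Chrnb1, Col5a3, Kantr, Rps15a, H2az1, Etv1, Psme2, Ndufa12, Nqo1, Mars1, Gspt1 and Btg2. The cause of the changes below was not tested.

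With library size as the only scaling, calls were 818 higher and 2424 lower, and list medians moved to -0.032 for YAP/TEAD targets, -0.038 for ERK feedback, -0.104 for the IFNg response, 0.111 for mitochondrial ribosomal proteins, -0.095 for cholesterol and fatty acid synthesis, 0.112 for the proteasome, -0.295 for glycolysis and hypoxia, 0.009 for replication, 0.042 for G2/M, -0.135 for NRF2 targets, 0.018 for chaperones, 0.137 for ribosome biogenesis, 0.01 for tRNA synthetases, -0.04 for the cereblon ligase and -0.207 for the matrix list. The genes with an absolute log2 value of at least 1 numbered 26 with DESeq2 and 52 with a filter of 1 CPM, and those called in neither dTAG-13 contrast 32 without a filter. After the length and GC correction, 392 genes had a larger dTAG-13 effect with doxycycline, 811 had one only without it and 38 in neither, and medians were 0.12 for mitochondrial ribosomal proteins, 0.113 for OXPHOS, 0.144 for the proteasome, 0.081 for the cereblon ligase and -0.065 for the matrix. With the replicate block added to that correction, the medians were the same to 3 decimals, the classes held 365, 808 and 31, and 823 genes were lower.

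The replicate block alone gave 2810 calls, 2780 of them shared. The replicate numbers do not pair the libraries: deviations of same-numbered libraries correlated at r = -0.168 to 0.18 over 18 pairs, and 5 of 12 libraries correlated best with their own number. Leaving out 1 library gave 12 to 27 genes called in neither dTAG-13 contrast (13 without the first control library and 12 without the first library with both compounds) and 81 to 150 with a smaller doxycycline effect (81 without the third dTAG-13 library). List counts that moved by over 1.5 times were 30 positive mitochondrial ribosomal proteins without the second dTAG-13 library, 29 cytosolic ones without the third control, 9 G2/M genes without the first doxycycline or the first dTAG-13 library, 3 snoRNA hosts without the first control, the first doxycycline or the second dTAG-13 library, 3 negative NF-kappaB genes without the first control, the first library with both, the third library with both or the second dTAG-13 library, and 2 or 3 MHC-I genes without any of the first 2 controls, the doxycycline or dTAG-13 libraries or the first with both.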
